A study of Mus musculus with 44 samples.

Results

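Collagen genes were taken as every gene whose symbol is Col, a type number, the letter a and a chain number, and 43 such genes were found in each of the deposited tables, of 24150 genes in the table of the subcutaneous model and 26940 in that of the intratracheal model. Collagens are triple-helical proteins of the extracellular matrix, each built from 3 chains that can be the same or different gene products. The fibrillar types carry tension in the interstitium, type IV forms the sheet of basement membranes under epithelium and endothelium, type VI forms beaded filaments around cells, and other types decorate fibrils or span the cell membrane. In the lung the alveolar wall depends on a thin basement membrane and a sparse fibrillar scaffold.

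All mice were C57BL6j and all RNA came from lung. In the intratracheal model, LL/2-Luc2 cells, a luciferase-marked Lewis lung carcinoma line, were placed in the airways. The groups were Timp2 mutant mice (MT2) with tumour cells and recombinant human TIMP2 (rTIMP2, 200 µg per kg per day into the peritoneum), wild-type mice (WT) with tumour cells and rTIMP2, MT2 mice with tumour cells and HBSS (the salt solution given as control), WT mice with tumour cells and HBSS, tumour-free MT2 mice and tumour-free WT mice, with 5 libraries in each. In the subcutaneous model the same line was injected under the skin of WT mice, whose lungs are labelled early metastatic. Those groups were rTIMP2 started on day 0 (n = 5), the same started on day 7 (n = 4) and HBSS (n = 5), with no tumour-free group. TIMP2 itself blocks matrix metalloproteinases, enzymes that can cut collagen. The stated purpose was to ask how the Timp2 mutation and rTIMP2 affect lung tumours. The labels give neither age nor sex, nor the kind of Timp2 mutation, and name separate libraries without saying whether each is a separate mouse. P-values therefore measure the spread between libraries. A piece of about 3 mm3 was taken per lung, so fewer cells of a type and less RNA per cell cannot be told apart.

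Some libraries stood apart before any collagen was looked at. The luciferase transcript had normalized counts of 37.9 to 75.5 in MT2 lungs given rTIMP2 except replicate 2 (0.983), 23.3 and 67.7 in replicates 1 and 4 of WT lungs given rTIMP2 but 0 in replicates 2, 3 and 5, 47.6 to 70.9 in MT2 lungs given HBSS, 39.3 to 69.2 in WT lungs given HBSS, and 0 in all 10 tumour-free libraries. Xist, transcribed from the inactive X chromosome, was 119 in MT2 rTIMP2 replicate 2 and 42.2, 92.4 and 54.5 in WT rTIMP2 replicates 2, 3 and 5, against 1153 to 8305 in the other tumour-bearing libraries and 4118 to 6657 in tumour-free ones. The Y-linked Ddx3y was 1024 to 1321 in those 4 libraries, 123 to 686 in the other tumour-bearing ones and 0.91 to 5.78 in tumour-free ones. Because these transcripts moved with tumour and with rTIMP2, differences in the sex of the mice or of the tumour cells cannot be told apart from tumour or treatment here. Timp2 itself averaged 6105 ± 144 in tumour-free MT2 lungs and 10619 ± 519 in tumour-free WT lungs (SD, n = 5 each), so MT2 lungs still held the transcript. The lung label held: the summed level of 8 alveolar epithelial markers was 286374 to 318881 in tumour-free MT2 lungs and 282735 to 342285 in tumour-free WT lungs.

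In tumour-free WT lungs the collagen genes took a median 0.461% of all normalized counts. Set per kilobase of transcript, so that genes can be compared, the basement membrane chains led: Col4a1 at 1486 ± 46.2 and Col4a2 at 1445 ± 53.4 normalized counts per kb (SD, n = 5), which differed by less than their spread. Col1a2 (1253 ± 208) and Col3a1 (1239 ± 300) followed and could not be separated from each other. Col6a1 was at 970 ± 70.6, Col1a1 at 919 ± 156 and Col6a2 at 823 ± 117, again with overlapping spreads. Lungs of HBSS mice with subcutaneous tumours had the same pair first, Col4a2 at 1422 ± 228 and Col4a1 at 1300 ± 152 per kb. At the low end, 13 of the 43 genes did not reach a normalized count of 10 in enough libraries to be tested between tumour-bearing and tumour-free lungs, among them the cartilage chains Col2a1, Col9a2, Col9a3, Col10a1 and Col11a1. Col19a1, Col25a1 and Col9a2 reached 10 in no library of either model.

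In lungs carrying tumour, the order was different. Col3a1, the sole chain of type III collagen, stood first at 11417 ± 5075 per kb in MT2 lungs given HBSS and 9144 ± 3715 per kb in WT lungs given HBSS (SD, n = 5 each). Behind it came Col6a1, at 2399 ± 1027 per kb in MT2 and 1586 ± 594 per kb in WT lungs, and Col18a1, at 1701 ± 500.0 and 1573 ± 494 per kb in the same order of genotype, a pair that overlapped in both genotypes. Col3a1 made up a median 53.5% of all collagen counts in MT2 lungs given HBSS against 14.0% in tumour-free MT2 lungs, and 55.1% in WT lungs given HBSS against 11.2% in tumour-free WT lungs. Collagen as a whole took a median 0.98% of the library in MT2 lungs given HBSS against 0.597% in tumour-free MT2 lungs, and 0.761% in WT lungs given HBSS against 0.461% in tumour-free WT lungs. The shares overlapped in both genotypes: MT2 HBSS replicate 5, at 0.262%, lay below every tumour-free MT2 library (0.485% to 0.625%), and WT HBSS replicate 1, at 0.497%, lay within the tumour-free WT range (0.418% to 0.509%). These are shares of deposited normalized counts, not of protein.

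Between WT tumour-bearing lungs given HBSS and tumour-free WT lungs, 27 of 30 tested collagen genes passed (limma with Benjamini-Hochberg adjustment over all tested genes, adjusted p below 0.05), 10 higher and 17 lower. Of all 16967 genes tested 70.5% passed, 32.8% higher and 37.7% lower, so most genes moved between these tissues. The median log2 fold change was -1.09 over the collagen genes and -0.07 over all genes. In MT2 lungs, 25 of 30 passed, 7 higher and 18 lower, where 67.4% of 16999 genes passed, 31.5% higher and 35.9% lower. Their median was -2.25, against -0.05 over all genes. The libraries of both groups did not overlap for 5 higher and 18 lower genes in MT2 (26.6% and 31.4% of all genes) and for 9 higher and 15 lower genes in WT (26% and 31.1% of all genes).

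**Figure D1:**
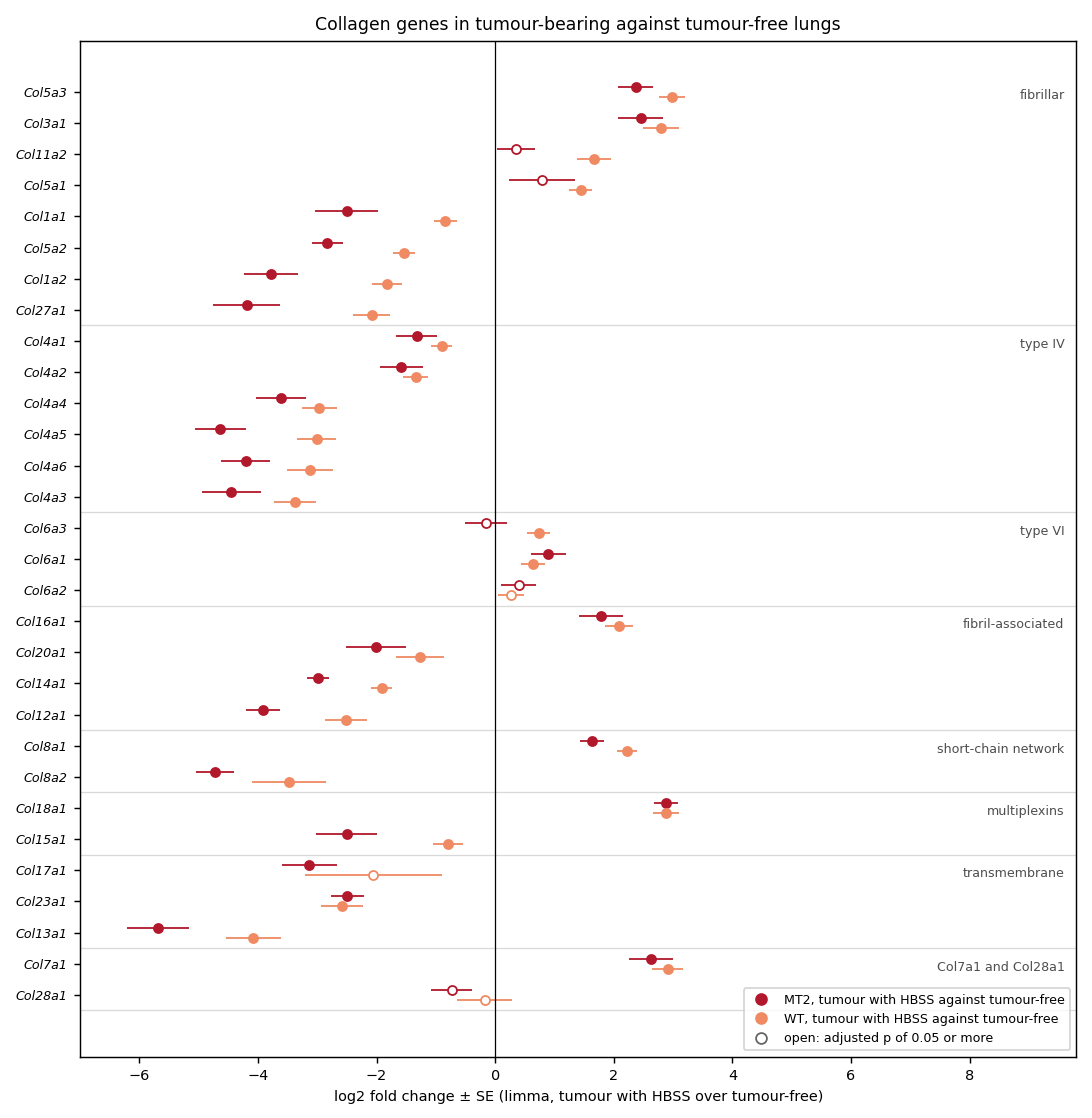
Log2 fold change (x axis, ± SE from limma) of the 30 tested collagen genes in tumour-bearing lungs given HBSS over tumour-free lungs, MT2 (dark) above WT (light) for each gene (y axis, grouped by type), with filled points for adjusted p below 0.05. All 6 type IV genes lie left of 0 in both genotypes, whereas the fibrillar genes lie on both sides, Col3a1 at 2.45 in MT2 and 2.80 in WT and Col1a2 at -3.78 and -1.82.

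Among the fibrillar genes, which form the cross-striated fibres of the interstitium, the members moved in opposite directions. Col3a1 (chromosome 1, 45311538 to 45349707, plus strand, mm10) had normalized counts of 77725, 94710, 67387, 58727 and 19061 in MT2 lungs given HBSS, against 11792, 11617, 11558, 6608 and 10782 in tumour-free MT2 lungs. In WT lungs it had 21783, 52550, 67552, 40074 and 72436 with HBSS, against 7173, 5206, 5576, 9439 and 7065 in tumour-free lungs. Every tumour-bearing library was above every tumour-free one in both genotypes. The log2 fold change was 2.45 ± 0.38 (SE; adjusted p = 0.000153, limma) in MT2 and 2.80 ± 0.31 (adjusted p = 2.35e-05, limma) in WT lungs.

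Col1a1 and Col1a2, the chains of type I collagen, went the other way. Col1a2 (chromosome 6, 4504814 to 4541545) had 1444, 329, 423, 1587 and 302 in MT2 lungs given HBSS, against 9494, 8605, 9012, 7027 and 9095 in tumour-free MT2 lungs. In WT lungs it had 3370, 1599, 1484, 2378 and 1220, against 7460, 5358, 5871, 8069 and 6756. The groups did not overlap, and the log2 fold change was -3.78 ± 0.46 in MT2 and -1.82 ± 0.25 in WT lungs. Col1a1 averaged 1774 ± 1186 in MT2 lungs given HBSS and 7675 ± 1125 in tumour-free MT2 lungs, and 3098 ± 827 in WT lungs given HBSS and 5449 ± 924 in tumour-free WT lungs (SD, n = 5 each). Its log2 fold change was -2.51 ± 0.54 in MT2 and -0.84 ± 0.19 in WT lungs.

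Type V collagen, which sits inside type I fibrils and limits their width, was split between its chains. Col5a3 rose by a log2 fold change of 2.37 ± 0.30 in MT2 and 2.98 ± 0.22 in WT lungs, and had the largest rise among the collagen genes tested in WT. Col5a1 (chromosome 2, 27886425 to 28039515) averaged 2696 ± 951 in WT lungs given HBSS and 948 ± 36.5 in tumour-free WT lungs, and rose (1.44 ± 0.20). In MT2 lungs Col5a1 had 4095, 4265, 2109, 2778 and 374 with HBSS, against 1237, 1161, 1319, 1033 and 1257 without tumour, and did not pass (0.79 ± 0.55, adjusted p = 0.224, limma), replicate 5 lying below every tumour-free library. Col5a2 fell in both, to 212 ± 101 in MT2 lungs given HBSS, against 1409 ± 163 in tumour-free MT2 lungs, and to 363 ± 110 in WT lungs given HBSS, against 1021 ± 104 in tumour-free WT lungs. Col27a1, a minor fibrillar chain, fell too (-4.19 ± 0.56 in MT2, -2.08 ± 0.31 in WT). Col11a2, a chain of type XI collagen, rose in WT lungs (1.66 ± 0.28) and had 0.35 ± 0.32 in MT2 lungs, and the difference between genotypes did not pass its own test (adjusted p = 0.265, limma interaction).

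Promoter windows of 3 fibrillar genes are shown because in WT lungs Col3a1 and Col5a1 rose and Col1a2 fell between the same groups (in MT2 lungs Col5a1 did not pass). Each is the 250 bases before the RefSeq gene start (GRCm38.p6, plus strand), at chr1:45311288-45311537, chr2:27886175-27886424 and chr6:4505368-4505617. RefSeq starts Col1a2 further into the gene than the GENCODE coordinates given above, so that window lies inside the GENCODE gene. Capitals mark matches on either strand to the motifs TATAAA (the TATA box), CCAAT (the CCAAT box) and GGGCGG (the GC box), and none of the matches overlaps another.
Col3a1: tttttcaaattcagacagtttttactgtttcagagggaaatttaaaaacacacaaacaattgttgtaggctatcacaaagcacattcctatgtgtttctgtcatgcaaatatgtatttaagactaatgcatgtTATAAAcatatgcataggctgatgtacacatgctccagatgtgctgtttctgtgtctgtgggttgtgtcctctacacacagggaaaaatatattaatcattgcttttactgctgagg
Col5a1: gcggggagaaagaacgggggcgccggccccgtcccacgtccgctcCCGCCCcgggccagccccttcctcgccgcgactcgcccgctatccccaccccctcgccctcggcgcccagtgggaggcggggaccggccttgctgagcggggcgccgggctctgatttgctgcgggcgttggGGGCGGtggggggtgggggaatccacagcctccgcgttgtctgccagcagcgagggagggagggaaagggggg
Col1a2: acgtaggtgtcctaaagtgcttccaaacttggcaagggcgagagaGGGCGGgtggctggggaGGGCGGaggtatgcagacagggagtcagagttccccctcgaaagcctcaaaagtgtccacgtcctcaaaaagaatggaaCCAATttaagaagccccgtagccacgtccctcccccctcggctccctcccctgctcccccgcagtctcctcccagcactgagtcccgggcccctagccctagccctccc
The Col3a1 window has a TATAAA 117 bases upstream, no other match and a GC content of 35.2%. The Col5a1 window has 2 matches to GGGCGG and a GC content of 76.4%, and the Col1a2 window has 1 CCAAT 109 bases upstream, 2 matches to GGGCGG and a GC content of 62.0%. Over 32851 such RefSeq windows, 12.37% hold TATAAA, 33.85% CCAAT and 32.74% GGGCGG. Of 38 windows of the 35 collagen genes in that table, 5 hold TATAAA, 13 CCAAT and 22 GGGCGG. A match is a description of letters, not evidence of a bound factor.

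All 6 type IV genes fell in both genotypes. Col4a1 and Col4a2 encode the chains found in nearly every basement membrane, while Col4a3, Col4a4 and Col4a5 form the alternative network of the glomerulus and the alveolus. Col4a3 had 65.8, 61.3, 297, 487 and 156 in MT2 lungs given HBSS, against 3929, 3601, 3336, 3155 and 3153 in tumour-free MT2 lungs. In WT lungs it had 725, 182, 155, 313 and 221, against 2619, 2988, 3178, 2472 and 2799. The groups lay far apart, with log2 fold changes of -4.45 ± 0.50 in MT2 and -3.37 ± 0.35 in WT lungs. Col4a4 (-3.61 ± 0.43 in MT2, -2.96 ± 0.29 in WT), Col4a5 (-4.64 ± 0.43 and -3.01 ± 0.33) and Col4a6 (-4.21 ± 0.41 and -3.13 ± 0.39) moved by similar amounts. Col4a1 fell less, by 1.32 ± 0.34 on the log2 scale in MT2 and 0.90 ± 0.18 in WT lungs, and Col4a2 by 1.58 ± 0.36 in MT2 and 1.34 ± 0.21 in WT lungs. Col4a1 (chromosome 8, 11198423 to 11312827, minus strand) and Col4a2 (11312805 to 11449288, plus strand) overlap at their starts, and whether reads were counted by strand is not given in the sources used here.

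Of the 6 type VI genes, whose chains form beaded filaments, 3 could be tested, with log2 fold changes no larger than 0.90 in either genotype. Col6a4, Col6a5 and Col6a6 were too low to be tested, so their changes are not covered here. Col6a1 averaged 9835 ± 4209 in MT2 lungs given HBSS and 4842 ± 476 in tumour-free MT2 lungs, and 6503 ± 2437 in WT lungs given HBSS and 3978 ± 289 in tumour-free WT lungs. It rose in both (0.90 ± 0.30 in MT2, adjusted p = 0.0190, and 0.64 ± 0.21 in WT, adjusted p = 0.0155, limma for each). In MT2 lungs the groups overlapped, as HBSS replicate 5 at 3935 lay below every tumour-free library. Col6a3, a chain with a long globular end, rose in WT lungs (0.73 ± 0.20) and had -0.15 ± 0.36 in MT2 lungs. Its WT groups overlapped, with HBSS replicate 1 at 2199 and tumour-free replicate 1 at 2255. With all groups in one fit, Col6a1 (adjusted p = 0.0625, limma) and Col6a3 (adjusted p = 0.0692, limma) lost their WT call. Col6a2 passed in neither (0.39 ± 0.29 and 0.27 ± 0.22).

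The multiplexins, basement membrane collagens that carry sugar chains and can be cleaved at their ends, were split. Col18a1, whose end fragment is endostatin, had 10506, 9089, 9813, 6525 and 4816 in MT2 lungs given HBSS, against 1052, 1031, 1112, 1008 and 1105 in tumour-free MT2 lungs. In WT lungs it had 4022, 6471, 8262, 8784 and 10150, against 1055, 878, 945, 940 and 1081. It rose by a log2 fold change of 2.88 ± 0.20 in MT2 and 2.88 ± 0.22 in WT lungs, with no overlap. Col15a1 fell, to 74.9 ± 59.0 in MT2 lungs given HBSS, against 326 ± 58.8 in tumour-free MT2 lungs, and to 160 ± 71.3 in WT lungs given HBSS, against 262 ± 37.9 in tumour-free WT lungs. Its WT groups overlapped.

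Of the other types, Col7a1, the anchoring fibril chain that holds epithelium to stroma, rose (2.62 ± 0.37 in MT2, 2.91 ± 0.26 in WT), as did the fibril-associated Col16a1 (1.78 ± 0.38 and 2.09 ± 0.23), although its MT2 libraries overlapped. Col8a1 and Col8a2, chains of the short network collagen VIII of vessel walls and Descemet's membrane, parted: Col8a1 rose (1.63 ± 0.20 and 2.22 ± 0.17) and Col8a2 fell (-4.72 ± 0.32 and -3.48 ± 0.63). The fibril-associated Col12a1, Col14a1 and Col20a1 fell in both, by 3.92 ± 0.29, 2.99 ± 0.18 and 2.01 ± 0.51 on the log2 scale in MT2 lungs and by 2.51 ± 0.36, 1.91 ± 0.18 and 1.27 ± 0.40 in WT lungs. The WT groups overlapped for Col20a1. The transmembrane Col13a1 had the largest fall of all, to 24.3 ± 21.3 in MT2 lungs given HBSS, against 939 ± 51.7 in tumour-free MT2 lungs, and to 68.1 ± 61.5 in WT lungs given HBSS, against 880 ± 49.2 in tumour-free WT lungs. Col23a1, also transmembrane, fell in both (-2.49 ± 0.28 and -2.59 ± 0.35).

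Col17a1, the hemidesmosome collagen of basal keratinocytes, fell in MT2 lungs (-3.13 ± 0.46) and did not pass in WT lungs (-2.05 ± 1.15), where its libraries ran from 2.43 to 443. That highest library, WT HBSS replicate 1, also had 2611 normalized counts of the basal keratin Krt5, against 0 to 516 in the other 4 libraries. In WT lungs given rTIMP2, Col17a1 reached 884 in replicate 3 and 326 in replicate 2, the libraries with Krt5 at 7051 and 1916, and lay at 16.3 to 68.9 in the other 3, where Krt5 was 6.26 to 16.3. The part of squamous cells in the Col17a1 values was not tested.

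**Figure D2:**
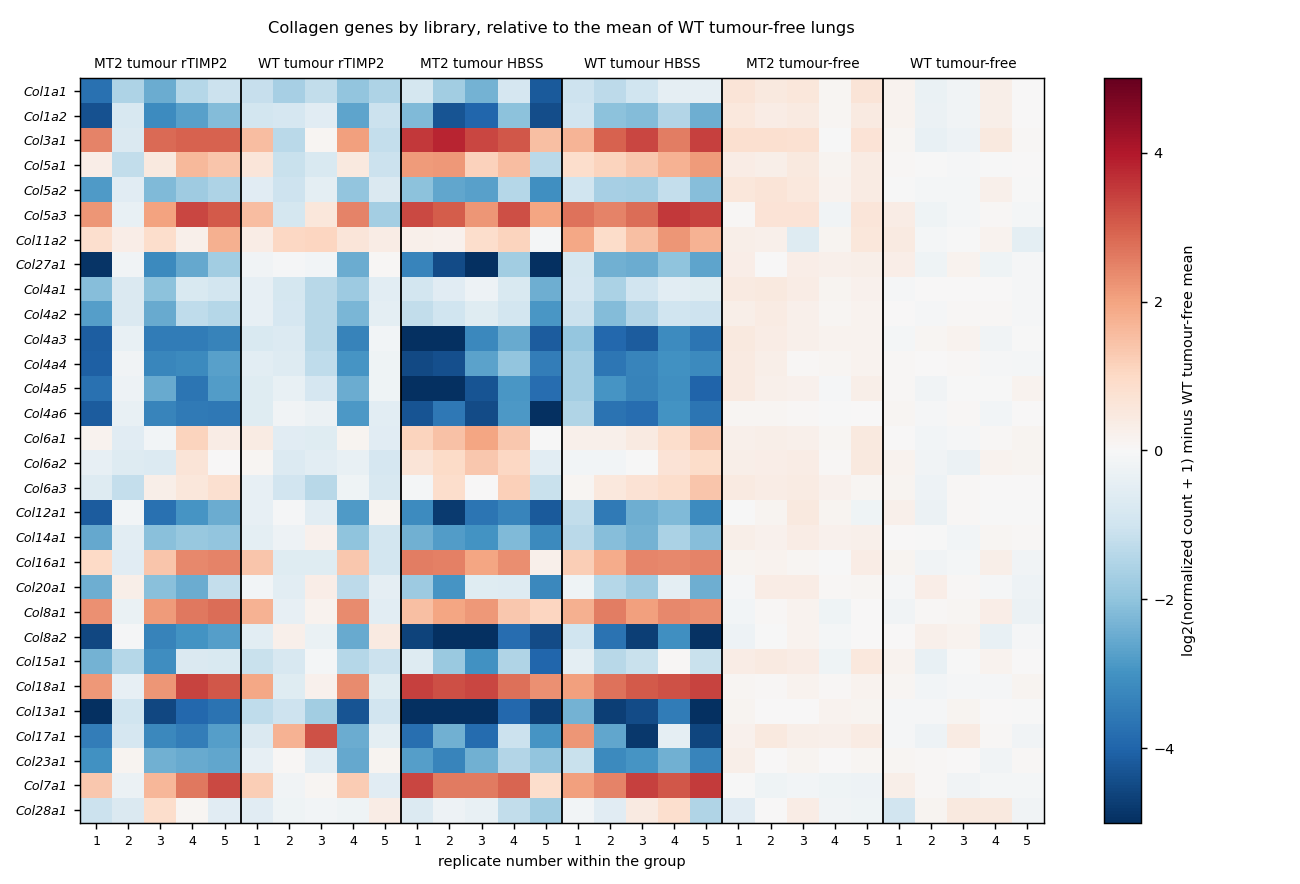
Each collagen gene tested between tumour-bearing and tumour-free lungs (rows) in each of the 30 libraries of the intratracheal model (columns, by group and replicate), as log2(normalized count + 1) minus the WT tumour-free mean, with the colour scale clipped at 5 in both directions. MT2 rTIMP2 replicate 2 and WT rTIMP2 replicates 2, 3 and 5, whose luciferase was 0.983 or 0, are paler than the HBSS libraries across most rows, as is WT rTIMP2 replicate 1 (luciferase 23.3).

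Cell type markers moved with these changes. Of all genes, 31.5% rose and 35.9% fell in MT2 lungs, and 32.8% rose and 37.7% fell in WT lungs. All 8 alveolar epithelial and all 10 endothelial markers fell in both genotypes. The endothelial sum was 3544 to 13482 in MT2 lungs given HBSS and 71398 to 78054 in tumour-free MT2 lungs, and 5782 to 26009 in WT lungs given HBSS and 70067 to 80362 in tumour-free WT lungs. Of 11 lung fibroblast markers, 8 fell in each genotype (2 rose in MT2 and 3 in WT lungs), and the sum was 19335 to 39497 in MT2 lungs given HBSS, 61904 to 69546 in tumour-free MT2 lungs, 23290 to 32362 in WT lungs given HBSS and 62787 to 71555 in tumour-free WT lungs. The 4 tumour transcripts found rose in both genotypes, with a sum of 6783 to 8489 in MT2 lungs given HBSS, 48.2 to 60.0 in tumour-free MT2 lungs, 3760 to 9009 in WT lungs given HBSS and 50.9 to 90.7 in tumour-free WT lungs. Of 9 myofibroblast markers, 3 rose and 4 fell in MT2 lungs, and 5 rose and 4 fell in WT lungs. The part of each cell type in the collagen values was not tested.

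Genes for the making of collagen moved in both directions, as genes in general did. Of 31 genes for collagen folding, hydroxylation, trimming and crosslinking, 14 rose and 10 fell in MT2 lungs, where 31.5% of all genes rose and 35.9% fell. In WT lungs 17 rose and 11 fell, where 32.8% of all genes rose and 37.7% fell. The same shares of all genes stand beside the receptor and partner counts below. Adamts14, a procollagen N-proteinase, rose by 4.42 ± 0.22 in MT2 and 3.60 ± 0.23 in WT lungs, and the prolyl hydroxylase subunit P4ha3 by 2.68 ± 0.35 and 3.54 ± 0.31. The lysyl oxidase Loxl3 rose (2.86 ± 0.23 and 2.82 ± 0.28), whereas its relative Loxl1 fell (-4.26 ± 0.37 and -2.79 ± 0.24). Serpinh1, the collagen chaperone HSP47, rose in WT lungs (1.17 ± 0.12) and had 0.18 ± 0.10 in MT2 lungs. Of 11 collagen receptors, 1 rose and 7 fell in MT2 lungs, and 2 rose and 7 fell in WT lungs, among the falls the integrin subunit Itga1 (-4.20 ± 0.26 and -2.85 ± 0.30). Of 10 tested fibril partners, 4 rose and 5 fell in each genotype, with Thbs2 (6.14 ± 0.27 and 5.79 ± 0.23) and Lum (4.71 ± 0.25 and 4.97 ± 0.35) up and Postn (-4.55 ± 0.36 and -2.95 ± 0.39) down.

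Pairs of chains were compared within each library, as the log2 ratio of their normalized counts with 1 added to each. Such a ratio depends on the library's scaling only where a chain is low. The chains of a pair share a molecule or a network, except Col1a1 to Col3a1 (types I and III) and Col4a3 to Col4a1 (different type IV networks). In 9 pairs over 9 comparisons, 27 of 81 two-sided exact permutation tests passed after Benjamini-Hochberg adjustment over the 81. Pairs of other genes were not tested, so no such share stands beside this count. Between tumour-bearing and tumour-free lungs, 67.4% of all genes passed in MT2 and 70.5% in WT. The ratios use the same values as the gene tests above. The smallest p that 5 against 5 libraries allow is 0.0079, and 0.0159 for 4 against 5. Passing ratios had an exact p of one or the other, with adjusted values of 0.0402 and 0.0476. The Col1a1 to Col3a1 ratio was -5.39 ± 0.82 in MT2 lungs given HBSS and -0.43 ± 0.17 in tumour-free MT2 lungs, and -3.96 ± 0.74 in WT lungs given HBSS and -0.32 ± 0.13 in tumour-free WT lungs (log2, SD, n = 5; exact permutation adjusted p = 0.0402 for each). Col5a1 to Col5a2 was 3.40 ± 1.19 in MT2 lungs given HBSS and -0.23 ± 0.14 in tumour-free MT2 lungs, and 2.87 ± 0.84 in WT lungs given HBSS and -0.10 ± 0.15 in tumour-free WT lungs. Col8a1 to Col8a2 was 6.01 ± 1.11 and -0.34 ± 0.08 in the same MT2 groups and 5.34 ± 1.76 and -0.36 ± 0.40 in the same WT groups. None of these overlapped between groups.

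Ratios also differed between and within the type IV networks and within type I. Across the networks, Col4a3 to Col4a1 was -4.98 ± 1.49 in MT2 lungs given HBSS and -1.86 ± 0.08 in tumour-free MT2 lungs, and -4.28 ± 0.83 in WT lungs given HBSS and -1.81 ± 0.14 in tumour-free WT lungs. Col4a3 to Col4a4, chains of one network, was -0.08 ± 0.23 in MT2 lungs given HBSS and 0.75 ± 0.09 in tumour-free MT2 lungs, and 0.27 ± 0.28 in WT lungs given HBSS and 0.67 ± 0.12 in tumour-free WT lungs, where the groups overlapped. Col4a1 to Col4a2, whose products assemble together, differed by 0.26 in MT2 and 0.44 in WT lungs. Col6a1 to Col6a2 differed by 0.50 in MT2 and 0.37 in WT lungs. Col1a1 to Col1a2 was 1.09 ± 0.84 in MT2 lungs given HBSS and -0.18 ± 0.07 in tumour-free MT2 lungs (exact permutation adjusted p = 0.0402, n = 5 each), whereas the WT difference did not pass.

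**Figure D3:**
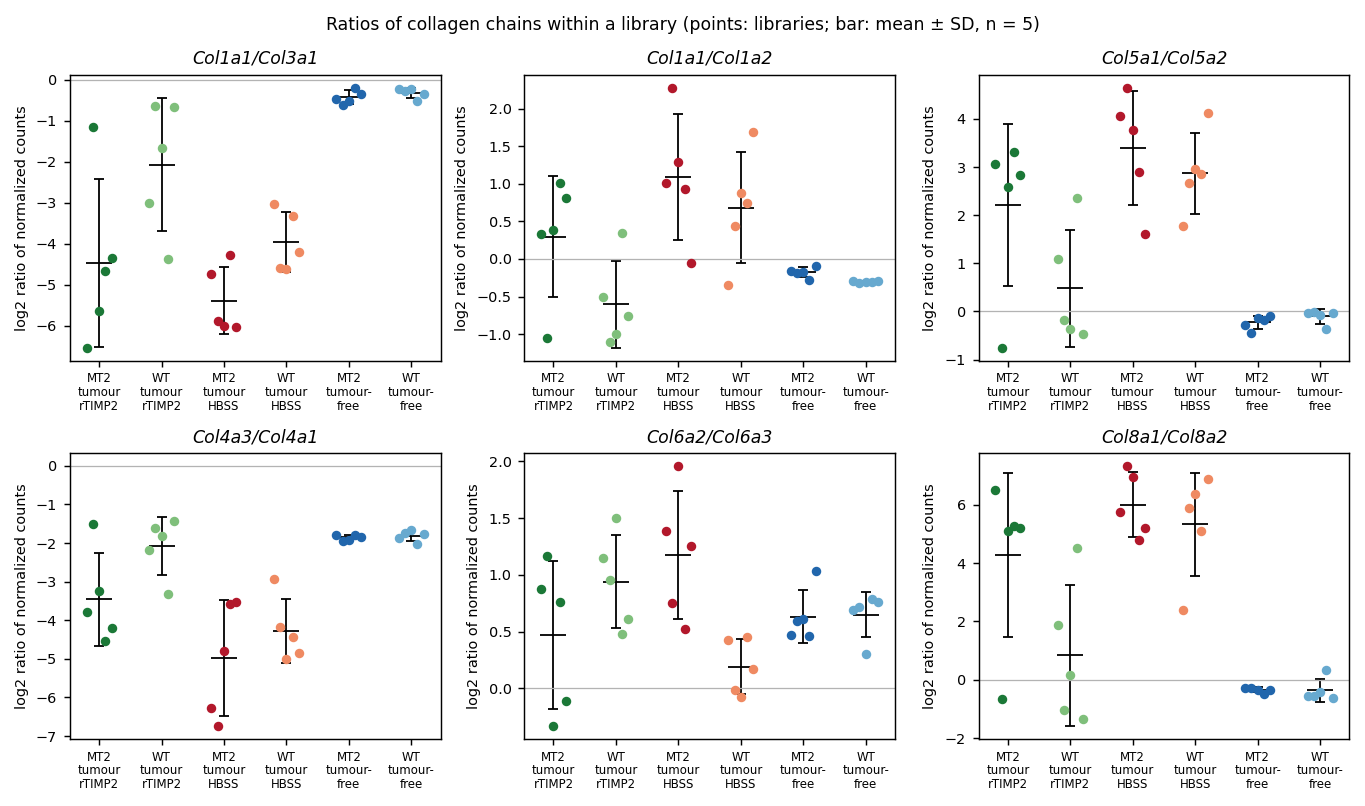
Log2 ratio of normalized counts with 1 added to each (y axis) for 6 pairs of collagen chains in each library of the intratracheal model (points), with the mean ± SD (n = 5) of each group (x axis). For Col1a1 to Col3a1, every HBSS library lies below every tumour-free library, with means of -5.39 in MT2 and -3.96 in WT lungs given HBSS.

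No collagen gene passed for a difference between the genotypes in the size of these tumour contrasts. In the interaction of genotype with tumour, 0 of 33 collagen genes passed (limma adjusted p below 0.05; 0.0223% of 17927 genes did), and 11 had an unadjusted p below 0.05, all with the more negative contrast in MT2 lungs, where 6.04% of all genes did so in that direction. The most negative was Col27a1 (-2.11 ± 0.67, adjusted p = 0.265, limma), followed by Col1a2 (-1.96 ± 0.56, adjusted p = 0.251, limma). The smallest adjusted p was that of Col14a1 (-1.07 ± 0.26, adjusted p = 0.157, limma). Of the 31 collagen-processing genes, 1 passed this interaction, with the more negative contrast in MT2 lungs. Without MT2 HBSS replicate 4, 3 collagen genes passed, and 3 did with a weight for each library. The shares of all genes passing in those fits are not given here.

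**Figure D4:**
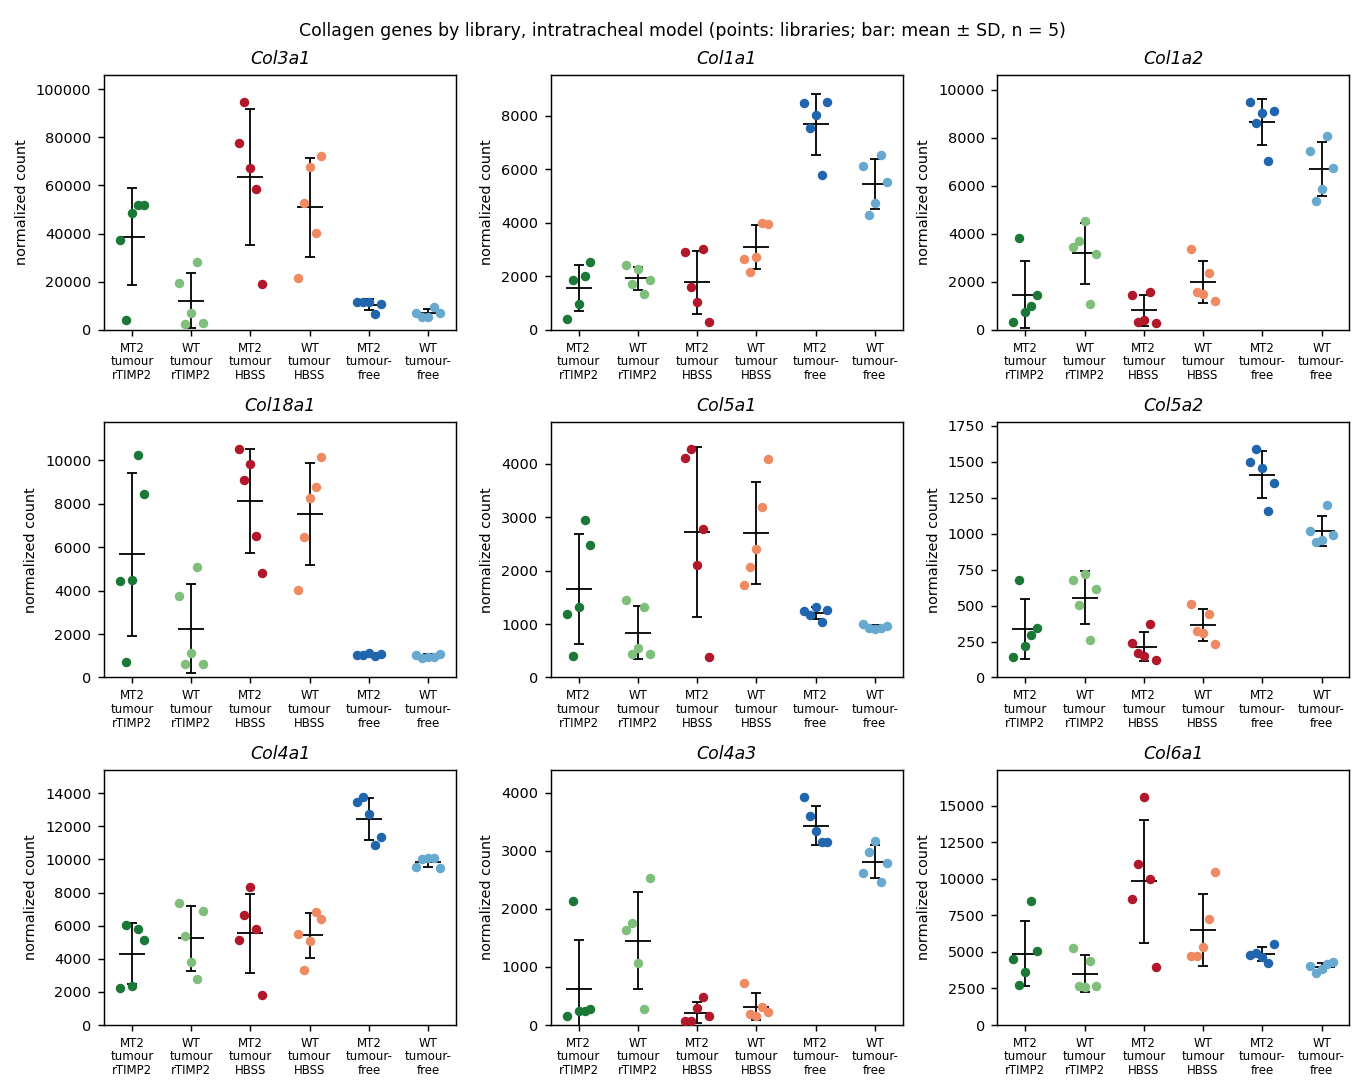
Normalized counts (y axes, linear, starting at 0) of 9 collagen genes in each library of the intratracheal model (points), with the mean ± SD (n = 5) of each group (x axis). Tumour-bearing HBSS libraries are high for Col3a1 and Col18a1 and low for Col1a2, Col5a2 and Col4a3, and for Col4a3 the rTIMP2 libraries reach from 161 to 2529.

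Tumour-free MT2 lungs were compared with tumour-free WT lungs to ask what the mutation does on its own. None of 31 tested collagen genes passed (limma; 0.0238% of 16774 genes did), but 17 had an unadjusted p below 0.05, all 17 higher in MT2 lungs, where 5.07% of all genes were higher at that level, and 27 of 31 had a positive fold change. The median log2 fold change was 0.25 over collagen genes and -0.00031 over all genes. Col5a1 had 1237, 1161, 1319, 1033 and 1257 in MT2 lungs, against 999.7, 930, 910, 930 and 971 in WT lungs, with no overlap (0.34 ± 0.06, adjusted p = 0.111, limma). Col4a1 had 13492, 13771, 12739, 10847 and 11366 in MT2 lungs, against 9536, 10014, 10057, 10088 and 9461 in WT lungs, again with no overlap (0.33 ± 0.06, adjusted p = 0.117, limma). Without MT2 tumour-free replicate 4, 3 collagen genes passed, and without WT tumour-free replicate 4, 1 did. For those fits the shares of all genes passing are not given here.

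Col4a2 and Col14a1 were the other collagen genes without overlap, 4 in all of 31, where 0.93% of all genes were higher without overlap. The smallest adjusted p was that of Col5a2 (1409 ± 163 in MT2 and 1021 ± 104 in WT lungs; 0.46 ± 0.08, adjusted p = 0.0897, limma). The largest difference was that of Col3a1 (0.60 ± 0.21, adjusted p = 0.434, limma), in which MT2 replicate 4 at 6608 lay within the WT range. Of the 4 genes that did pass among all genes, 2 act on collagen: Serpinh1, at 5728 ± 187 in MT2 and 4482 ± 355 in WT lungs (0.36 ± 0.06, adjusted p = 0.0343, limma), and the crosslinking enzyme Loxl2, at 891 ± 63.2 in MT2 and 652 ± 56.8 in WT lungs (0.45 ± 0.07, adjusted p = 0.0343, limma). The Col1a1 to Col1a2 ratio was -0.18 ± 0.07 in MT2 and -0.30 ± 0.01 in WT lungs and passed (exact permutation adjusted p = 0.0402, n = 5 each). Lung fibroblast markers had sums of 61904 to 69546 in MT2 and 62787 to 71555 in WT lungs, which overlap.

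With tumour and HBSS the direction was not the same. None of 31 collagen genes passed between MT2 and WT lungs (limma; 0% of 16299 genes did), and the 9 with an unadjusted p below 0.05 were all lower in MT2 lungs, where 4.36% of all genes were lower at that level. Col1a2 averaged 817 ± 641 in MT2 and 2010 ± 874 in WT lungs (-1.58 ± 0.50, adjusted p = 0.501, limma), and Col11a2 34.2 ± 12.6 and 79.2 ± 25.3 (-1.20 ± 0.34, adjusted p = 0.487, limma). The Col6a2 to Col6a3 ratio was 1.17 ± 0.57 in MT2 and 0.19 ± 0.24 in WT lungs (exact permutation adjusted p = 0.0402, n = 5 each).

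In WT tumour mice, rTIMP2 was compared with HBSS, using the same HBSS libraries as the tumour contrast above. Here 19 of 31 collagen genes passed, 10 lower and 9 higher with rTIMP2, where 27.3% of 16908 genes passed, 11.3% lower and 16% higher. These calls lay just under the threshold, with adjusted p between 0.0398 and 0.0481 (limma), and 0 of them passed when any 1 of WT rTIMP2 replicates 1, 2, 3 and 5 or WT HBSS replicates 2, 3, 4 and 5 was left out. Col3a1 had 19600, 2659, 7173, 28270 and 2975 with rTIMP2, against 21783, 52550, 67552, 40074 and 72436 with HBSS (-2.56 ± 0.67). Replicates 1 and 4, the treated libraries with luciferase above 0, were the highest of the treated group, and replicate 4 lay above the lowest HBSS library.

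Lower without overlap were Col7a1 (147.5 ± 83.8 with rTIMP2 and 817 ± 318 with HBSS; -2.55 ± 0.42), Col5a1 (1441, 441, 553, 1327 and 445 with rTIMP2, against 1730, 2061, 2405, 3190 and 4094 with HBSS; -1.81 ± 0.39) and Col6a3 (1271 ± 402 with rTIMP2 and 3564 ± 1201 with HBSS; -1.48 ± 0.28). That is 3 of 31 genes, where 2.44% of all genes were lower without overlap. Also lower were Col5a3 (-2.57 ± 0.69), Col18a1 (-2.21 ± 0.59), Col16a1 (-1.97 ± 0.50), Col11a2 (-0.98 ± 0.30), Col6a1 (-0.88 ± 0.29) and Col1a1 (-0.67 ± 0.22). Col18a1 had 3755, 639, 1140, 5096 and 642 with rTIMP2, against 4022, 6471, 8262, 8784 and 10150 with HBSS, and replicates 1 and 4 were again the highest treated libraries.

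Higher with rTIMP2 were Col8a2 (2.95 ± 0.78), Col4a6 (2.23 ± 0.60), Col13a1 (2.21 ± 0.73), Col4a3 (2.11 ± 0.60), Col4a5 (2.11 ± 0.49), Col23a1 (1.93 ± 0.56), Col4a4 (1.85 ± 0.52), Col12a1 (1.78 ± 0.59) and Col14a1 (1.23 ± 0.38). Col4a3 had 1639, 1757, 1077, 276 and 2529 with rTIMP2, against 725, 182, 155, 313 and 221 with HBSS, replicate 4 alone lying within the HBSS range. Col1a2 (0.62 ± 0.40), Col5a2 (0.58 ± 0.30), Col4a1 (-0.10 ± 0.30), Col4a2 (0.26 ± 0.37), Col6a2 (-0.73 ± 0.26) and Col15a1 (-0.10 ± 0.33) did not pass. The Col6a2 to Col6a3 ratio was 0.94 ± 0.41 with rTIMP2 and 0.19 ± 0.24 with HBSS (exact permutation adjusted p = 0.0402, n = 5 each), and the ratios of Col5a1 to Col5a2 (0.48 ± 1.22 and 2.87 ± 0.84) and Col4a3 to Col4a1 (-2.07 ± 0.75 and -4.28 ± 0.83) passed too (exact permutation adjusted p = 0.0476 each).

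Other cell types moved with this contrast: all 8 alveolar markers rose, with sums of 76722 to 309503 with rTIMP2 and 25523 to 131956 with HBSS, and all 4 tumour transcripts tested fell, with sums of 73.1 to 5356 with rTIMP2 and 3760 to 9009 with HBSS. Of 10 endothelial markers 8 rose and 0 fell, with sums of 9390 to 65746 with rTIMP2 and 5782 to 26009 with HBSS. Of 11 lung fibroblast markers 6 rose and 0 fell, with sums of 28912 to 62209 with rTIMP2 and 23290 to 32362 with HBSS, and of 7 mesothelial markers 5 rose and 0 fell. Of 9 myofibroblast markers, 2 rose and 3 fell. Of the 31 collagen-processing genes, 4 rose and 11 fell. Of all genes, 16% rose and 11.3% fell in this contrast. The parts of these cell types, of tumour content and of host sex in the collagen values were not tested.

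In MT2 tumour mice, 0 of 29 collagen genes passed between rTIMP2 and HBSS (limma; 0% of 16248 genes did), and 5 had an unadjusted p below 0.05. Of those 5, 3 were higher, where 6.15% of all genes were higher at that level, and 2 were lower, where 3.45% were. Col3a1 had 37479, 4088, 48544, 51798 and 51873 with rTIMP2, against 77725, 94710, 67387, 58727 and 19061 with HBSS (-0.96 ± 0.71, adjusted p = 0.635, limma). The low treated library is replicate 2, with luciferase at 0.983. Col6a1 (-0.99 ± 0.39) and Col8a2 (2.01 ± 0.73) were among the 5. The difference between genotypes in the rTIMP2 contrast passed for 0 of 32 collagen genes (limma; 0% of 17841 genes did), with 4 at an unadjusted p below 0.05, all 4 higher (Col11a2, Col6a3, Col7a1 and Col8a1), where 3.8% of all genes were. With a weight for each library 18 collagen genes passed, 9 in each direction. The 0% of all genes comes from the fit without weights, and the share with weights is not given here. Col3a1 had an interaction of 1.60 ± 1.03 (adjusted p = 0.669, limma).

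In the lungs of mice with subcutaneous tumours, no collagen gene passed against HBSS for either start day, with log2 fold changes of -0.28 (Col3a1) to 0.48 (Col20a1) for day 0 and -0.70 (Col26a1) to 0.58 (Col20a1) for day 7. With rTIMP2 from day 0, 0 of 32 passed (limma; 8.1% of 17282 genes did) and 4 had an unadjusted p below 0.05, 3 higher and 1 lower, against 12.9% higher and 13.1% lower of all genes. For the later start, 0 of 32 passed (limma; 10.4% of 17389 genes did) and 6 had an unadjusted p below 0.05, 2 higher and 4 lower, against 12.8% higher and 14.1% lower of all genes. Between the start days, 0 of 33 passed (limma; 0.235% of 17481 genes did), and 0 had an unadjusted p below 0.05, against 7.37% higher and 5.5% lower of all genes. A p that misses the threshold does not show that levels were equal.

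Col3a1 had 2720, 4337, 4335, 4217 and 3991 when rTIMP2 began on day 0, 4810, 4728, 4075 and 3866 when it began on day 7, and 5187, 5506, 4190, 4357 and 4327 with HBSS. The log2 fold change was -0.28 ± 0.13 (adjusted p = 0.187, limma) for day 0 and -0.11 ± 0.10 (adjusted p = 0.500, limma) for day 7 against HBSS. Col27a1 was higher on average from day 0 (371 ± 30 with rTIMP2 and 292 ± 63.8 with HBSS; 0.37 ± 0.13, adjusted p = 0.0888, limma), and Col5a1 was lower on average from day 7 (533 ± 40.5 with rTIMP2 and 636 ± 64.2 with HBSS; -0.25 ± 0.08, adjusted p = 0.0671, limma). Neither passed, and in both the libraries overlapped. Larger fold changes that did not pass either were those of Col7a1 for day 0 (111 ± 15.5 with rTIMP2 and 82.4 ± 22.8 with HBSS; 0.47 ± 0.20, adjusted p = 0.148, limma), and for day 7 Col20a1 (64.8 ± 9.03 with rTIMP2 and 45.1 ± 14.6 with HBSS; 0.58 ± 0.27, adjusted p = 0.174, limma) and Col26a1 (9.46 ± 4.94 with rTIMP2 and 15.1 ± 4.73 with HBSS; -0.70 ± 0.38, adjusted p = 0.260, limma).

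**Figure D5:**
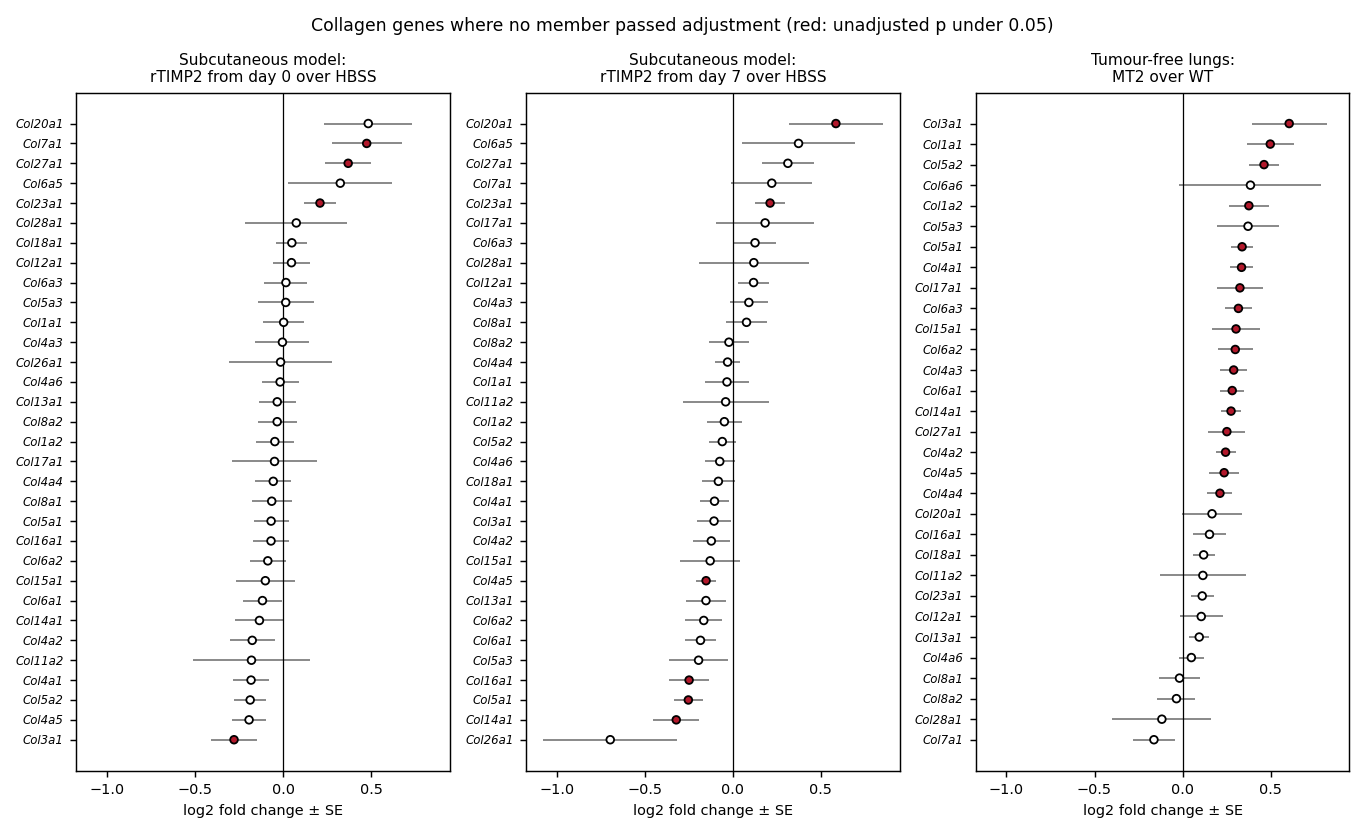
Log2 fold change ± SE (x axes, limma) of each tested collagen gene (rows) in 3 comparisons in which no collagen gene passed adjustment, with red points for an unadjusted p below 0.05. In the subcutaneous panels the points lie on both sides of 0, whereas in tumour-free lungs 27 of 31 lie to the right, up to 0.60 for Col3a1.

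Within libraries, some chain ratios of the subcutaneous model did pass. Col1a1 to Col3a1 was -0.28 ± 0.16 with rTIMP2 from day 0 and -0.56 ± 0.09 with HBSS (exact permutation adjusted p = 0.0402, n = 5 each). Col5a1 to Col5a2 was -0.64 ± 0.11 when rTIMP2 began on day 7 (n = 4), against -0.33 ± 0.11 when it began on day 0 and -0.45 ± 0.08 with HBSS (n = 5 each, exact permutation adjusted p = 0.0476 for each). Col4a3 to Col4a1 was -1.31 ± 0.08 with rTIMP2 from day 7 and -1.50 ± 0.12 with HBSS. Of the 31 collagen-processing genes, 6 fell and 0 rose when rTIMP2 began on day 0, where 4.21% of all genes fell, and 4 fell and 0 rose when it began on day 7, where 5.92% fell. Serpinh1 was among them both times (-0.79 ± 0.11, adjusted p = 0.000705, and -0.46 ± 0.12, adjusted p = 0.0303; limma).

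Markers of other cells moved in these contrasts too. Of 8 alveolar markers, 1 fell for day 0 and 4 for day 7, with sums of 250866 to 319652 for day 0, 276907 to 305508 for day 7 and 337825 to 402638 with HBSS. Of 7 mesothelial markers, 1 fell for day 0 and 4 for day 7, with sums of 4408 to 6129, 4713 to 5495 and 5033 to 9056 in the same order. Of 9 cardiac muscle markers, 2 fell for day 0 and 1 for day 7, whereas 0 of 11 lung fibroblast markers passed in either (limma). Of 2 tested tumour transcripts, 1 rose for day 0 and 0 for day 7. The 4 tumour transcripts found had sums of 91.1 to 139 for day 0, 67.1 to 96.7 for day 7 and 61.9 to 76.7 with HBSS. Of 8 squamous markers, 0 rose for day 0 and 1 for day 7. Among all genes, 671 rose and 728 fell of 17282 for day 0, and 776 rose and 1029 fell of 17389 for day 7. HBSS replicate 1 stood apart in squamous markers, with a sum of 43063. Its count of the keratin Krt13 was 21178, whereas the remaining 13 libraries had 94.9 to 236. Without it, 0 collagen genes passed for day 0 and 1 for day 7, and 6 and 5 processing genes fell, with the shares of all genes not given here. The part of these cells in the values was not tested.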

How the data were processed

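Poly(A) RNA from lung was sequenced in 44 libraries, 30 of the intratracheal and 14 of the subcutaneous model. The values are normalized counts that the authors deposited, 1 table per model, read here as a signal with no fixed total. The submitters' processing notes name Partek, Bowtie2, STAR and DESeq2 without versions or roles, and the build mm10. The tables were normalized separately, so tests stay within a table. The deposited values carry no totals. From the steps between low values (tolerance 0.02 of a step, up to 20 steps), depth was estimated at 10680000 to 17140000 reads per intratracheal library and 14870000 to 19410000 per subcutaneous library. Only 78.2% to 84.1% of low values were whole multiples, so no count test was run.

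Genes at 10 or more in at least as many libraries as the smaller group were tested with limma 3.58.1 (R 4.3.3; trend and robust) on log2(value + 1), with only the compared groups in the fit and Benjamini-Hochberg adjustment over all tested genes, at 0.05. Fold changes on that scale understate the change of low genes. The script was tested on simulated data. Levels per kb use the longest principal GENCODE M21 transcript. Chain ratios were tested by two-sided exact permutation (scipy 1.17.1). The text describes chains of types I, III, IV, V, VI, XV and XVIII always, and elsewhere up to 10 called genes per direction whose higher group averaged at least 50. The members, gene lists and tests were chosen with earlier results of these data known. Sample groups follow the sample titles. The treatment labels of the intratracheal rTIMP2 samples carry a rising number after the name Timp, and were read as rTIMP2 from the titles. Alternatives were pseudocounts, filters, scalings, a fit over all groups, other limma settings, array weights, a replicate block and leaving out each library. The count of processing genes without subcutaneous HBSS replicate 1 was added after seeing the data.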

Additional observations from a re-analysis of the deposited data

Results flagged for a closer look

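Of 241 sets of 1 collagen gene in 1 group, 21 had a library whose gap to its nearest neighbour was too large a part of the group's range (Dixon's test at the 95% level, on log2 values), spread over 8 libraries. Chance gives about 1 in 20 sets, and genes of the same library are not independent. All values are normalized counts.

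WT rTIMP2 replicate 4 was low in 7 genes: Col12a1 at 106, Col13a1 at 43.3, Col1a2 at 1072, Col23a1 at 175, Col27a1 at 45.7, Col4a5 at 215 and Col4a6 at 37.5. The other 4 libraries of that group had, for Col1a2, 3156 to 4532. Luciferase in this library was 67.7, the highest of its group.

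MT2 rTIMP2 replicate 2 was high in 3 genes, Col23a1 at 1131, Col4a3 at 2136 and Col4a6 at 215, and low in 2, Col3a1 at 4088 and Col8a1 at 170. The other 4 libraries had 161 to 276 for Col4a3 and 37479 to 51873 for Col3a1. Luciferase in this library was 0.983, the lowest of its group.

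MT2 HBSS replicate 5 was low for Col16a1 at 509, Col4a2 at 1237 and Col5a1 at 374, the last against 2109 to 4265 in the other 4 libraries. Luciferase there was 70.9, the highest of its group. In tumour-free MT2 lungs, replicate 4 was low for Col15a1 at 226 and Col3a1 at 6608, and replicate 2 for Col27a1 at 267.

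In the subcutaneous model, rTIMP2 from day 0 replicate 1 was low for Col3a1 at 2720. With rTIMP2 from day 7, replicate 1 was low for Col20a1 at 51.2 and replicate 4 for Col4a6 at 297.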

How the results depend on the processing

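The count of collagen genes passing between tumour-bearing and tumour-free lungs was 25 in MT2 (25 to 28 with a library left out, 24 to 29 under other settings) and 27 in WT lungs (27 to 28, and 23 to 34). With all groups in one fit, Col1a1, Col6a1, Col6a3 and Col15a1 lost their WT call. For rTIMP2 against HBSS in WT lungs the count was 19. It was 0 with a replicate block, 0 in 8 of 10 fits without a library, and 0 to 24 over all 10. Of the comparisons with a count of 0, leaving out a library gave 0 to 1 for rTIMP2 from day 0 against HBSS (1 without HBSS replicate 5), 0 to 1 from day 7 (1 without rTIMP2 replicate 2, HBSS replicate 1 or HBSS replicate 4), 0 to 3 for tumour-free MT2 against WT (3 without MT2 tumour-free replicate 4) and 0 to 3 for the interaction of genotype with tumour (3 without MT2 HBSS replicate 4). With array weights, the count was 1 for the start on day 7, 3 for the interaction of genotype with tumour and 18 for the interaction of genotype with rTIMP2, 9 in each direction. The cause was not tested, and the shares of all genes passing under these other settings are not given here. Correlations of same-numbered libraries ran from -0.566 to 0.422, which does not settle whether the numbers pair the libraries. They were treated as unpaired, with the replicate block as an alternative. Of 81 chain ratios, all 81 stayed called or uncalled as before at pseudocounts of 0.5 and of 5, and no called ratio changed sign. With a library left out, 640 of 792 fits stayed called or uncalled as before, 141 lost their call and 11 gained one. Among ratios called before or after, 0 changed sign. Uncalled ratios could change sign, as Col8a1 to Col8a2 between MT2 and WT lungs given HBSS did (0.67 on all libraries, as low as -0.06 without 1). Ratios called on all libraries then had an adjusted p of at most 0.0904. Smaller groups allow only larger exact p-values. Each ratio called with rTIMP2 from day 7 kept its call in 0 of 9 fits. There even the smallest possible exact p was too large to pass, so those fits could not test the call. For the other lost calls the cause was not tested. At most 5 libraries a group and about 3 mm3 of tissue limit the precision.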
